A study of Mus musculus with 3 samples.

Results

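VPS37B is a subunit of ESCRT-I, a protein complex of the endosome, and its gene Vps37b was described here beside its paralogs, its partners in the complex and the gene that overlaps it. The genes were taken by name: the 4 Vps37 paralogs Vps37a, Vps37b, Vps37c and Vps37d, the core subunits Tsg101 and Vps28, the Mvb12 and Ubap1 class genes Mvb12a, Mvb12b and Ubap1, and Hip1r, which is no ESCRT gene but overlaps Vps37b on the opposite strand. They make 10 of the 55536 genes in the deposited gene tables. The set was chosen by already known values of Vps37b in these libraries: TPM, expected counts, isoform percent and counts of an older table. Levels, ratios and isoform shares are therefore descriptions with no test.

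RNA with polyA tails was sequenced from naive CD4 T cells with the αβ receptor, labelled thymus-derived, of a single animal, a male B6.SJL-Ptprca Pepcb/BoyJ mouse of 5 months. The 3 libraries are technical replicates 1, 2 and 3 of this mouse, no treatment is given in the labels, and there is no control group or condition to compare. Every SD below is therefore the spread between technical libraries (n = 3) and carries no information on animals. Levels are TPM, the deposited abundance scaled for transcript length and library size, except where a different quantity is stated. Positions follow GRCm38 (mm10) with the GENCODE M21 annotation.

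ESCRT complexes gather ubiquitin-tagged membrane proteins on endosomes and bud them into internal vesicles, which are then delivered to the lysosome. ESCRT-I is an assembly of a TSG101 subunit, a VPS28 subunit, 1 of the VPS37 paralogs and 1 subunit of the MVB12 or UBAP1 kind. It receives cargo from ESCRT-0 and passes it to ESCRT-II and ESCRT-III, and VPS4 then takes the ESCRT-III filament apart. In T cells this route is known for the turnover of surface receptors such as the antigen receptor, and several viruses use TSG101 to leave the cell.

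Expected counts, the estimated number of reads from each gene, summed to 14837442, 18207118 and 17505621 in libraries 1, 2 and 3. These sums include entries that name no gene, without which they were 14800852, 18170786 and 17448768. All 7 markers of naive CD4 T cells were at or above 1 TPM in every library, from Il7r (377 ± 18.5 TPM) to Ccr7 (2632 ± 111 TPM). Markers of other cells and of activated T cells were each below all 7 of these. The 4 B cell genes summed to 3.31 to 3.70 TPM, the 4 myeloid genes to 2.06 to 3.35 TPM and the 3 natural killer genes to 0.24 to 1.40 TPM. The 3 erythroid genes summed to 1.2 to 1.77 TPM and the 4 genes of activated T cells to 25.7 to 28.2 TPM. Cd8a was at 0.140 ± 0.0458 TPM and Cd8b1 at 17.0 ± 0.235 TPM.

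Vps37b lies on chromosome 5, minus strand, from 124004641 to 124032270, and has 3 annotated transcripts. The protein-coding transcript joins 4 exons and ends in a 3′ untranslated region of 1606 bases. The other transcripts are annotated as processed, with no coding frame. The splice junctions below, of 30 bases on each side, are shown because they tell the transcripts apart. They were read from the GENCODE M21 transcripts (GRCm38, minus strand, 5′ to 3′), and capitals mark the stretch to compare. The coding and the 922-base transcript differ before the junction, where each has its own first exon, and the 360-base transcript has the first exon of the coding transcript but another second exon.
Vps37b coding transcript, chr5:124032102-124032131 joined to chr5:124010830-124010859: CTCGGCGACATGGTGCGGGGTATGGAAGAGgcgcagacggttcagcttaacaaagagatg
Vps37b 922-base processed transcript, chr5:124011650-124011679 joined to chr5:124010830-124010859: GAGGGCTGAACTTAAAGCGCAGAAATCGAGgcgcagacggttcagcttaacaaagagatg
Vps37b 360-base processed transcript, chr5:124032102-124032131 joined to chr5:124027936-124027965: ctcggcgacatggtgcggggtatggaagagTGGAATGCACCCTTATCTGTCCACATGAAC

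Vps37b was among the most abundant messages of these cells in the gene tables on GENCODE M21. Its level was 6101 TPM in library 1, 4753 TPM in library 2 and 6192 TPM in library 3, or 5682 ± 806 TPM. Library 2 was the lowest, and libraries 1 and 3 were close to each other. Among 22028 protein-coding genes it ranked 3, 8 and 4 in the 3 libraries and 5 by mean level. It held 0.568% ± 0.0806 of all TPM and 0.823% ± 0.0951 of the expected counts on genes. By expected counts summed over the libraries (412842) it came first of all genes, ahead of the MHC class I genes H2-D1 (248210) and H2-K1 (217048). The deposited count table on the older GENCODE M4 annotation did not hold this level: it gave Vps37b 1846, 1828 and 1820 counts, and the expected counts were 75.1-fold higher in sum. Both tables are set side by side for all members further on.

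**Figure D1:**
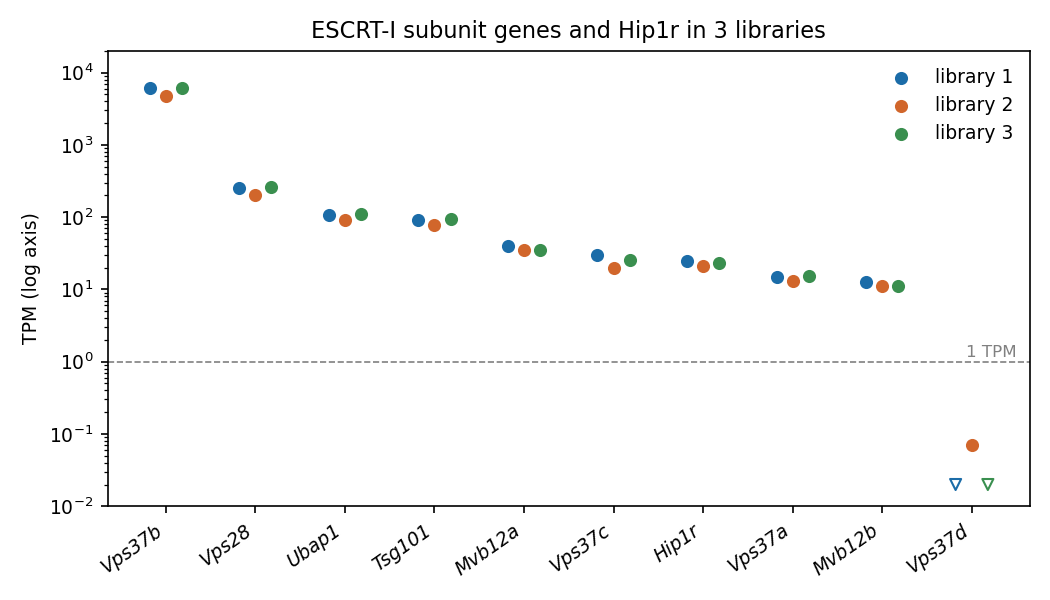
TPM (log axis) of the 10 genes in each of the 3 technical libraries, 1 point per gene and library; open triangles near the lower edge mark a value of 0, and the dashed line is 1 TPM. Vps37b lies between 4753 and 6192 TPM, above every point of the other 9 genes, and Vps37d is at 0 in libraries 1 and 3.

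The Vps37 paralogs share a domain through which they join TSG101 and VPS28, and 1 of them sits in each complex. Vps37a (chromosome 8, 40511783 to 40551134), the paralog with an extra ubiquitin-binding-like domain at its amino end, had 15.0, 12.9 and 15.3 TPM (14.4 ± 1.32). Vps37c (chromosome 19, 10688735 to 10714627) had 29.95, 19.8 and 25.1 TPM (24.97 ± 5.06) and was the most variable of the detected members across libraries, with a coefficient of variation of 20.3%. Vps37d (chromosome 5, 135072900 to 135078266) had 0, 0.07 and 0 TPM, from 1 count in all. In every library Vps37b was far above the other paralogs, Vps37c was above Vps37a, and Vps37d was at or near 0. A count of 0 allows up to 3 counts, which for Vps37d is 0.256 TPM in library 1 and 0.215 TPM in library 3, counting error only.

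On the log2 scale, with 0.1 TPM added to each level, Vps37b exceeded Vps37a by 8.61 ± 0.08 and Vps37c by 7.83 ± 0.15. As plain ratios of TPM these are 393 ± 21.2 and 230 ± 23.0. The ratio to Vps37a was lowest in library 2, and the ratio to Vps37c lowest in library 1. The ratio to Vps37d rests on a single Vps37d count: pooled and scaled for length it was 223032, with an exact Clopper-Pearson 95% interval of 40030 to 8.81e+06. Of the summed TPM of the 4 paralogs, Vps37b made up 99.3% ± 0.0414. With no length scaling, it made up 98.9% of their expected counts and 71.7% ± 1.63 of their counts in the older table. The other 3 paralogs together had 44.95, 32.8 and 40.4 TPM. No 50-base stretch of the leading transcript of a Vps37 paralog occurred on the same strand of another of the 10 genes, so an exact read of this length from it matched no other paralog.

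Tsg101 (chromosome 7, 46888949 to 46919969), the subunit that binds ubiquitin and the late-domain motifs of viruses, had 90.3, 77.5 and 93.2 TPM (87.0 ± 8.35). Vps28 (chromosome 15, 76622087 to 76626086), which links the core to ESCRT-II, had 249, 202 and 260 TPM (237 ± 31.1) and was the next most abundant member after Vps37b. Vps28 stood 2.72 ± 0.101 times above Tsg101, and the libraries of the 2 genes did not overlap. Vps37b stood 65.1 ± 3.32 times above Tsg101 and 23.9 ± 0.488 times above Vps28 (log2 ratios 6.02 ± 0.07 and 4.58 ± 0.03). The ratio to Vps28 was the steadiest of the 9 ratios across libraries. The level of Tsg101 is uncertain to the extent that 536 of the 1900 50-base stretches of its leading transcript (28.2%) also occur in its pseudogene Tsg101-ps, to which the tables gave 0.337 ± 0.301 TPM.

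The Mvb12 and Ubap1 genes encode the alternative last subunits, of which UBAP1 is known to direct the complex towards endosomal sorting. Ubap1 (chromosome 4, 41348996 to 41390525) had 107, 90.8 and 109 TPM (102 ± 10.04). Mvb12a (chromosome 8, 71542922 to 71548085) had 40.1, 35.5 and 35.5 TPM (37.0 ± 2.64), and Mvb12b (chromosome 2, 33729953 to 33887946) had 12.8, 11.2 and 11.3 TPM (11.8 ± 0.916). Ubap1 was above Mvb12a and Mvb12a above Mvb12b in every library, with no overlap. Together the 3 genes had 151 ± 12.1 TPM, 1.74 ± 0.0607 times the level of Tsg101. The 3 Vps37 paralogs other than Vps37b came to 0.451 ± 0.0403 times Tsg101, and all 4 paralogs to 65.6 ± 3.35 times. Vps37b exceeded Ubap1 by 5.79 ± 0.07, Mvb12a by 7.25 ± 0.19 and Mvb12b by 8.89 ± 0.19 on the log2 scale.

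Ordered by mean level, the genes ran Vps37b, Vps28, Ubap1, Tsg101, Mvb12a, Vps37c, Hip1r, Vps37a, Mvb12b and Vps37d. The ranges of Ubap1 and Tsg101 over the libraries overlapped, although Ubap1 was the higher in each library. Vps37c and Hip1r also overlapped, and their order turned in library 2, where Hip1r was the higher. All other neighbours in this order had separate ranges, for Vps37a and Mvb12b by a narrow margin (lowest Vps37a 12.88 TPM, highest Mvb12b 12.84 TPM). Of the summed TPM of the 9 ESCRT-I genes, Vps37b held 91.7% ± 0.270, and the other 8 genes came to 515 ± 56.4 TPM. Of the 10 genes, 9 were at or above 1 TPM in every library and only Vps37d was not; 44.6% of all protein-coding genes (9823 of 22028) reached that level.

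Nearly all of Vps37b was assigned to its coding transcript. The transcript of 2522 bases had 98.5%, 98.6% and 99.0% of the gene's TPM (98.7% ± 0.265) and 411333 of its expected counts. The 922-base processed transcript had 0.873% ± 0.176, or 49.5 TPM on average, and the 360-base transcript 0.467% ± 0.107, or 26.1 TPM. By mean TPM both were above Vps37c (24.97 TPM), but in library 3 the 360-base transcript, at 21.7 TPM, was below Vps37c. The processed transcripts share exons with the coding one, so the tables separate them by estimation, and the reads that crossed the printed junctions were not analysed here.

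**Figure D2:**
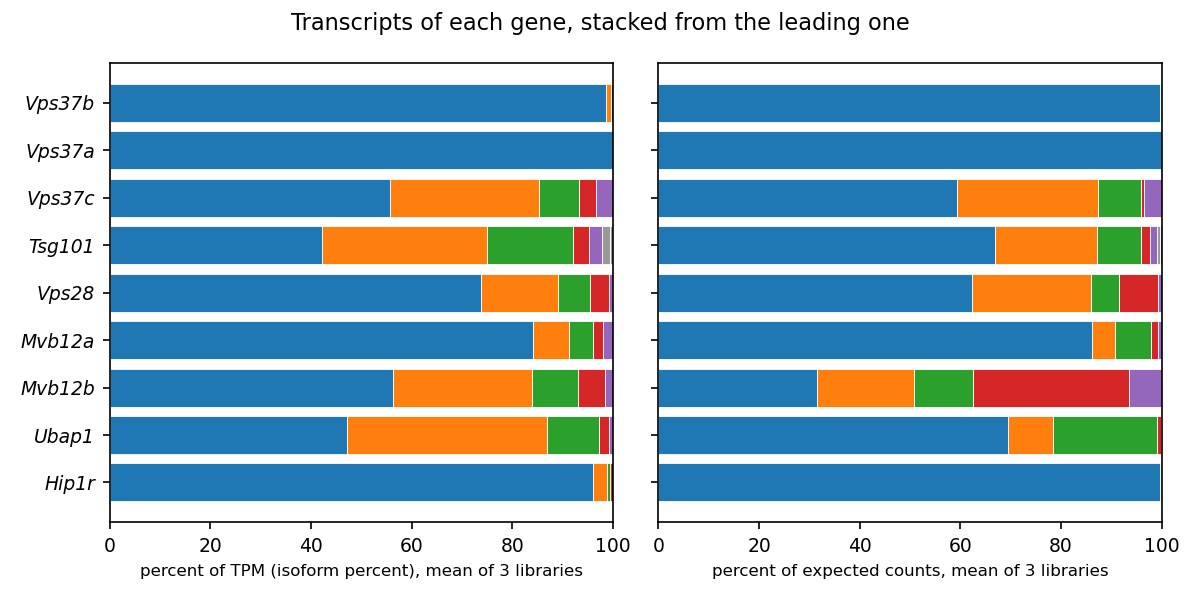
Share of each transcript in its gene's TPM (left) and expected counts (right), in percent, as the mean of 3 technical libraries; 1 stacked bar per detected gene, each segment 1 transcript, starting from the leading one. The leading transcript holds 98.7% of the TPM of Vps37b and 96.0% of that of Hip1r, while Mvb12b, Tsg101 and Ubap1 are divided over several.

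The other members ranged from 1 transcript to several of similar share. Vps37a has 1 annotated transcript, and the single Vps37d count went to a transcript of 1286 bases. For Hip1r the coding transcript of 6735 bases held 96.0% ± 0.721, and for Mvb12a that of 1062 bases held 84.1% ± 3.55. The leading Vps28 transcript held 73.8% ± 5.91, and a transcript annotated with a retained intron held 15.3% ± 0.962, so that 80.1% ± 0.840 of the Vps28 TPM was coding. Vps37c varied most between libraries: its leading transcript held 36.9%, 69.9% and 60.6%, and in library 1 a transcript of 2355 bases had as large a share (36.9%). By posterior means, an alternative deposited estimate, the leading transcript held 37.5% on average against 55.8%, so the split between Vps37c transcripts is uncertain. All 5 Vps37c transcripts are coding. Of the 6 minor Hip1r transcripts, 1 with a retained intron (835 bases) held 2.76% ± 1.36, a coding one of 357 bases 0.680% ± 1.18 and a decay target of 817 bases 0.517% ± 0.895. The last 2 had values above 0 in library 3 only, and the other 3, of 884, 598 and 747 bases, were listed at 0.

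Short transcripts took large shares of TPM in 3 members, where a share of TPM and a share of counts are different quantities. In Ubap1 the transcript of 2514 bases held 47.2% ± 0.531 of TPM and 69.5% of expected counts, and a coding transcript of 422 bases held 39.8% ± 1.55 of TPM and 8.87% of counts. A further Ubap1 transcript of 3456 bases held 10.2% ± 0.599 of TPM and 20.7% of counts. In Tsg101 the transcript of 1949 bases held 42.2% ± 3.39 of TPM and 66.8% of counts, that of 791 bases 32.8% ± 4.76 and 20.3%, and that of 661 bases 17.0% ± 4.45 and 8.72%. In Mvb12b a processed transcript of 520 bases led with 56.3% ± 11.9 of TPM and 31.5% of counts, while the full coding transcript of 4998 bases held 5.38% ± 1.57 of TPM and 31.0% of counts. A further coding Mvb12b transcript of 641 bases held 27.6% ± 10.3, and coding transcripts came to 32.9% ± 10.3 of the gene's TPM, the lowest coding share of the detected members. Mvb12b had 298 expected counts over the 3 libraries, which limits the precision of its shares.

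Hip1r (chromosome 5, plus strand, 123973628 to 124005558) encodes a protein that links clathrin coats to actin. Its last exon runs into the last exon of Vps37b from the other side, and the 2 genes share 918 exonic bases, from 124004641 to 124005558. These are 32.9% of the exonic bases of Vps37b and 12.5% of those of Hip1r. All 918 lie in the 3′ untranslated region of Vps37b and none in coding sequence of either gene. Gm37939 (plus strand, 124004648 to 124006151), a transcript model that the annotation keeps for experimental follow-up, lies within the same last exon of Vps37b: all of its 447 exonic bases fall in the 3′ untranslated region of Vps37b, and 180 of them are also in Hip1r. Together Hip1r and Gm37939 cover 1185 of the 1606 bases of that region (73.8%).

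**Figure D3:**
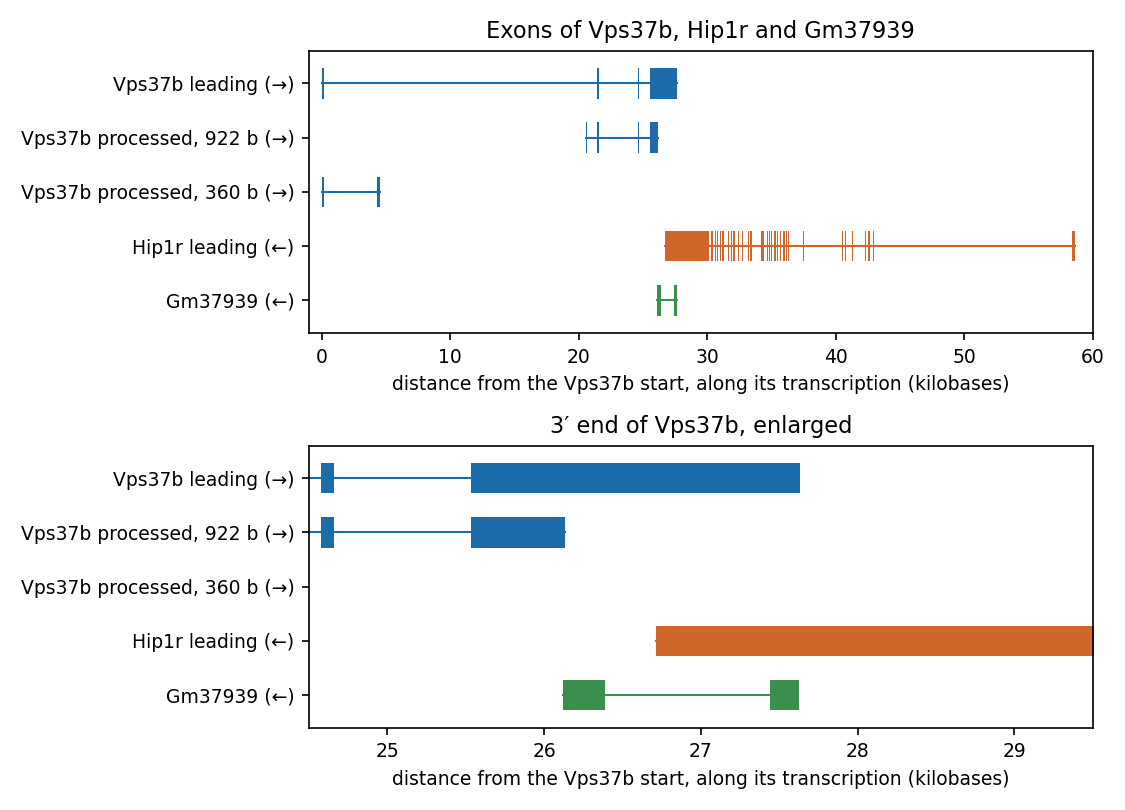
Exons (boxes) of the Vps37b transcripts, the leading Hip1r transcript and Gm37939, in kilobases from the Vps37b start along its direction of transcription, with the 3′ end enlarged below; arrows beside the names give each direction. The last exon of Hip1r and both exons of Gm37939 lie opposite the last exon of Vps37b.

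Hip1r was at 24.3, 20.8 and 23.2 TPM (22.8 ± 1.81), 248 ± 19.1 times below Vps37b (log2 ratio 7.95 ± 0.11). Gm37939 was at 837, 727 and 758 TPM (774 ± 57.0), above all members but Vps37b. In expected counts Hip1r had 1.06% ± 0.0914 and Gm37939 2.24% ± 0.251 of those of Vps37b. For both Hip1r and Gm37939 this percentage was highest in library 2, where the TPM of Vps37b was lowest. In the leading Vps37b transcript 1087 of 2473 50-base stretches (44.0%) occur, reversed, in Hip1r or Gm37939, and none occur on the same strand in another gene. No source used here says whether counting used strand, so reads of Vps37b, Hip1r and Gm37939 over the shared bases cannot be told apart, and the level of Gm37939 in particular is uncertain.

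The protein-coding neighbours within 50 kilobases of Vps37b, besides Hip1r, were Abcb9, a lysosomal peptide transporter, and Ccdc62. Abcb9 was at 107 ± 10.7 TPM and Ccdc62 at 2.42 ± 0.550 TPM. Neither approached the level of Vps37b.

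The other ESCRT genes all lay far below Vps37b. Of 37 genes in the ESCRT lists, 33 were at or above 1 TPM in every library, against 44.6% of all protein-coding genes (9823 of 22028). The median level of the 37 was 41.9 TPM. The 36 genes without Vps37b had a median of 41.0 TPM and summed to 2229 TPM, less than the level of Vps37b alone. These medians include listed genes that were not detected. The median of all protein-coding genes was 0.357 TPM, and that of the detected ones was 31.4 TPM. The most abundant of the 36 was Vps28, and Vps37b was 24.0-fold above it.

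By step of the pathway, all 3 ESCRT-0 genes were detected, by mean level from Stam (29.6 ± 1.60 TPM) to the cargo-binding Hgs (40.1 ± 3.62 TPM). All 3 ESCRT-II genes were detected, from Vps36 (30.02 ± 1.68 TPM) to Vps25 (67.3 ± 2.28 TPM). In ESCRT-III, whose proteins polymerise to cut the membrane, 10 of 11 genes were detected. By mean level Ist1 was the highest (133 ± 14.1 TPM), though not in library 3, and Chmp4c the lowest (0.460 ± 0.0625 TPM). The ATPase genes Vps4a and Vps4b were at 51.8 ± 3.65 and 92.0 ± 8.14 TPM, with their cofactor Vta1 between them at 71.1 ± 7.59 TPM. Of the 7 partner genes 6 were detected: Pdcd6ip, which encodes the adaptor ALIX, led with 193 ± 14.0 TPM, and Cep55, which recruits ESCRT proteins to the bridge between dividing cells, was lowest with 0.480 ± 0.0520 TPM. The ESCRT-I list also held Ubap1l, a relative of Ubap1, with 3 counts in all. Of the 6 genes listed with Hip1r for clathrin and actin, 4 were detected in every library, with the actin nucleator gene Actr3 the highest (800 ± 85.0 TPM) and Hip1, the paralog of Hip1r, the lowest (0.160 ± 0.0458 TPM).

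**Figure D4:**
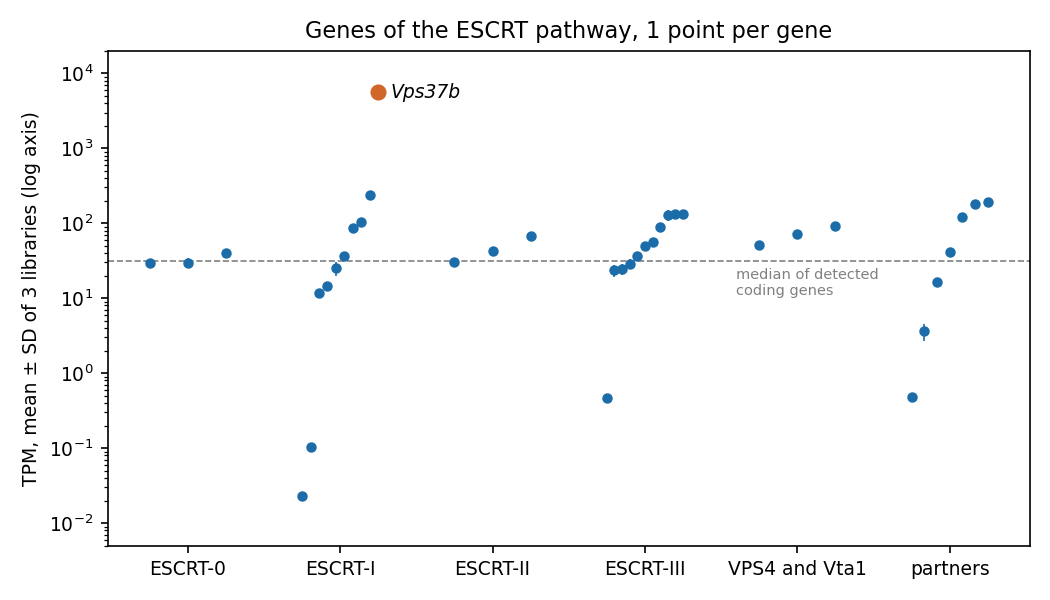
Mean TPM (log axis) of each gene of the ESCRT lists, with bars of 1 SD over 3 technical libraries for genes at or above 1 TPM; the dashed line is the median of detected protein-coding genes. Vps37b stands apart at 5682 TPM, with Vps28 the next at 237 TPM and the median of the other genes at 41.0 TPM.

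The libraries differed beyond counting noise for a large share of all genes. TMM is a normalization that multiplies each library total by a factor taken from trimmed ratios of gene counts between libraries. Expected counts scaled in this way were compared per gene by a chi-square test of homogeneity, with Benjamini-Hochberg adjustment over all genes tested. It called 5238 of 13090 genes (40.0%), and 4 of 9 members, a share near that of all genes; Vps37d had too few counts to be tested. The 4 were Vps28 (adjusted p = 4.22e-09), Tsg101 (0.000995), Vps37c (0.00165) and Vps37b, which was chosen by its expected counts and has the most of any gene, so that nothing is read from its call. The p-values cover counting error only, and reads without molecular identifiers are not independent molecules. In the 4 called genes the highest scaled count was 1.19 to 1.25 times the lowest, 1.21 for Vps37b, with 144144, 122058 and 147835 scaled counts. For Vps37a, Mvb12a, Mvb12b, Ubap1 and Hip1r the adjusted p ran from 0.121 to 0.942. These tests compare technical libraries of 1 mouse, not conditions.

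Of the 3 fits that left out a library, the one without library 2 called the fewest genes. Of the 9 detected members 8 had their lowest TPM there, Mvb12a being the exception, as had 59.8% of all detected protein-coding genes (5877 of 9823). Without library 2 the test called 1 member, Vps37b (adjusted p = 1.04e-09), and 1903 of 12917 genes (14.7%). Here too nothing is read from a call of Vps37b. Without library 1 the same 4 members were called, and 4875 of 13260 genes (36.8%). Without library 3 it called Vps37b, Vps37c and Vps28, and 3615 of 13115 genes (27.6%), and Tsg101 had an adjusted p of 0.0915. Scaling by library totals in place of TMM added Vps37a (adjusted p = 0.0472) and Ubap1 (0.0122), with 5545 of 13090 genes called (42.4%). Library 2 had the largest total of expected counts, and the part of depth in these differences was not tested.

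The older count table gave 8 of the 9 matched members fewer counts, by very unequal factors. For most members the older counts were a moderate part of the expected counts: 69.7% for Mvb12a, 56.6% for Ubap1, 55.2% for Vps37a, 54.4% for Mvb12b, 37.5% for Vps37c and 34.8% for Tsg101. For Hip1r they were 17.9%, and for Vps37b 1.33%, with 1.44%, 1.41% and 1.17% in libraries 1, 2 and 3. Vps37d had its 1 count in both tables, and the identifier of Vps28 was not matched in the older table. Protein-coding genes with 1000 to 10000 summed expected counts, 5558 in all, had a median of 52.6% (quartiles 37.4% and 66.7%). The 217 genes with at least 30000 had a median of 12.2% (quartiles 5.26% and 21.6%), and 18 of them were lower than Vps37b.

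In the older table the gap between Vps37b and the other members was much smaller, though its direction was the same for each. Vps37b exceeded Ubap1 by 0.93, Vps37a by 1.88, Tsg101 by 2.34, Hip1r by 2.81, Mvb12a by 2.85, Vps37c by 3.02 and Mvb12b by 5.08 on the log2 scale of counts, which unlike TPM are not scaled for length. By mean share of the older counts it ranked 591 of the 21352 protein-coding genes in both tables, and by mean share of expected counts, also with no length scaling, 1 of 22028. As a share of all older counts Vps37b had 0.0358%, 0.0314% and 0.0319% in libraries 1, 2 and 3, highest in library 1, where its share of expected counts was 0.865%, 0.714% and 0.889%, highest in library 3. On the older counts the homogeneity test called 1 of 8 members, Vps37b (adjusted p = 0.000191), and 1895 of 10013 genes (18.9%). Nothing is read from this call of Vps37b, for which the set was chosen. Among 219 genes with at least 30000 summed expected counts and 300 unshared exonic bases, none had over 2 older counts per exonic base in any library. Bases shared between genes of the older table were left out of the divisor but not of the counts, a measure chosen after seeing the data. The bases were taken from GENCODE M21, not from the GENCODE M4 annotation of the older counts. Whether the older table limits the counts at a position, which bears on the older share, rank and ratios of Vps37b given here, was not tested. Which table is nearer to the number of Vps37b molecules was not tested, and no source used here gives the counting rules behind the older table.

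**Figure D5:**
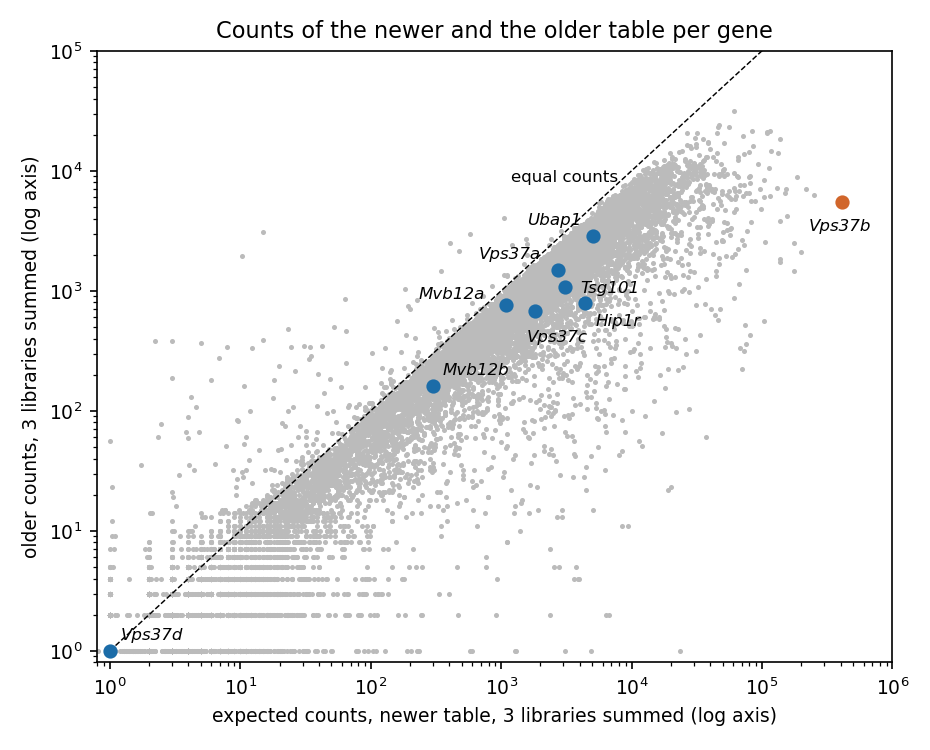
Counts of the older table against expected counts of the newer table, each summed over 3 technical libraries (log axes), 1 point per gene with at least 1 count in both; the dashed line marks equal counts. Vps37b (412842 expected counts) lies far below the line, and the other members, with fewer expected counts, lie nearer to it among the grey points of all genes. For the 217 protein-coding genes with at least 30000 expected counts, the median older count was 12.2% of the expected. Of these genes 18 had a lower percentage than Vps37b.

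By the Euclidean distance over log2(TPM + 1) in the 3 libraries, the protein-coding genes nearest to Vps37b in level included H2-D1 (0.32; 5063 ± 373 TPM), Rps19 (0.44; 5508 ± 375 TPM), Tmsb10 (0.53; 4768 ± 137 TPM) and mt-Co3 (0.55; 6236 ± 666 TPM). H2-D1, like Vps37b, was lowest in library 2, whereas Rps19 and mt-Co3 were highest there. With 3 libraries of 1 mouse this measures likeness of level only.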

How the data were processed

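Gene and transcript tables on GENCODE M21 (mm10) and a further count table on GENCODE M4 were used for each of the 3 libraries. Per the file headers, the authors deposited expected counts (estimated reads per gene), TPM and, for transcripts, isoform percent, with transcript lengths beside them. Whole-number counts per gene were deposited in the older table of 22457 genes, of which 22195 were matched by identifier. The aligner, counting tool and use of strand were not given in the sources used here.

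Entries that name no gene held 0.247%, 0.200% and 0.325% of expected counts and were left out of tests. Symbols were found for 55450 of the 55536 identifiers. Where a symbol has 2 entries, as Hgs does, values were summed. Ratios used a pseudocount of 0.1 TPM, and detection means 1 TPM or more in every library. Expected counts were rounded and scaled in R 4.3.3 with the TMM method of edgeR 4.0.16, keeping genes that averaged 10 counts or more, and homogeneity was tested in scipy 1.17.1 with a threshold of 0.05. The test was tested on simulated data. DESeq2 1.42.0 size factors, library totals, other pseudocounts, posterior means, rescaled TPM, unscaled counts, the older counts and leaving out each library were the alternatives. Length minus effective length was 49, from which 50-base stretches were taken and searched on both strands of all GENCODE M21 transcripts. A count of 0 allows up to 3 counts, and intervals cover counting error only.

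The members and gene lists were chosen with earlier results of these data known. Named were all members, all Vps37b and Hip1r transcripts, other members' leading transcripts and those at 10% or more, the highest and lowest gene of each list, protein-coding genes within 50 kilobases, and the 5 genes nearest in level. Some genes that this rule or the marker lists name are not reported here. H2-K1, Vta1, Ubap1l and marker genes beyond this rule were named after their values were seen, as was Gm37939.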

Additional observations from a re-analysis of the deposited data

How the results depend on the processing

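Of 206 recomputed values 138 stayed within the spread between libraries or, for counts of genes, within 1.5 times of the main count. Of the rest 66 moved further, 2 counts fell by over 1.5 times, and none reversed. A reversal, meaning a change of sign, was possible for the log2 ratios alone, because levels, percentages, ranks and counts of genes are never negative. Levels as rescaled TPM or as CPM, counts scaled by the library total, are in other units than the main TPM. Their moves therefore include the change of unit. Of the 93 values that left out a library, 92 stayed. For means over libraries this says nothing, because leaving out 1 of 3 values cannot move a mean by their SD. Only the rank and the counts of genes could have moved. The exception was the number of genes that differed between libraries. It ranged from 1903 to 4875 against 5238, and was 1895 of 10013 on the older counts. Vps37b was at 6498 TPM rescaled over protein-coding genes, 8226 CPM by expected counts and 330 CPM by older counts, where it ranked 1 and 591. A pseudocount of 1 TPM gave log2 ratios of Vps37b to Vps37a of 8.52 and to Vps37d of 12.43; the latter was 18.11 with 0.01 TPM and 14.24 with posterior means. Expected counts with no length correction gave 7.25 for Vps37a, 17.54 for Vps37d, 7.05 for Tsg101, 5.84 for Vps28, 8.56 for Mvb12a, 10.43 for Mvb12b, 6.34 for Ubap1 and 6.56 for Hip1r. Older counts gave 1.88 for Vps37a, 3.02 for Vps37c, 11.31 for Vps37d, 2.34 for Tsg101, 2.85 for Mvb12a, 5.08 for Mvb12b, 0.93 for Ubap1 and 2.81 for Hip1r, and no value for Vps28. The Vps37b share of its paralogs was 98.9% of expected and 71.7% of older counts, and its leading transcript held 99.6% of its expected counts. The causes were not tested, beyond what the change of length scaling itself does. Depth limits Vps37d, with 1 count, so its ratio is set by the pseudocount. No paired analysis was possible because the libraries form a single group.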

Other observations

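Older counts were also divided by exonic bases that no other gene of the older table covers, a measure chosen after seeing the data. The full older count of each gene was used, so any counts over shared bases raise its value per base. The bases are those of GENCODE M21, whereas the older counts were made on GENCODE M4, so the values per base are approximate. Vps37b has 1871 such bases and 0.987, 0.977 and 0.973 older counts per base in libraries 1, 2 and 3. Hip1r, with 6451 such bases, had 0.0374, 0.0445 and 0.0397, and Vps37a had 0.0713, 0.0786 and 0.0861. Among 219 genes with at least 30000 summed expected counts and 300 such bases, the median was 0.422 and the highest value in any library 1.91. None of the 219 exceeded 2, and 26 were above Vps37b.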
